A study of Caenorhabditis elegans with 2 samples.

Results

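Binding of the T23F11.4 protein to divergent coding promoters, stretches of DNA from which 1 protein-coding gene is read off each strand, was described from chromatin immunoprecipitation and sequencing of Caenorhabditis elegans. A region entered this set if it lay on a nuclear chromosome, had a pooled signal value of at least 80, and had its summit within 1000 bp of annotated coding starts on both strands. Regions within 500 bp of a tRNA, snoRNA, snRNA, rRNA, miRNA or ncRNA gene were left out. These criteria gave 167 regions of the 29999 nuclear regions in the list called on both replicates together, and of the 2263 with a signal of at least 80. The signal value is the authors' own value per region, and how it scales with read depth is not given in the sources used here. Both it and the positions of starts were used: the regions were chosen by them, so they are given as descriptions with no test.

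The study held 1 group with 2 biological replicates. It used strain OP709, which carries the mutation unc-119(tm4063) and the transgene wgIs709. This transgene holds T23F11.4::TY1::EGFP::3xFLAG, which encodes the tagged protein, and a rescuing copy written unc-119(+). Late embryos labelled 4 hours, of both sexes, came from bleached eggs, and whole animals were used with an antibody against green fluorescent protein. The replicates thus share 1 transgenic line, all cells of the embryo were mixed, and a control named in the labels was not analysed here. Sets of other regions from the same lists stand in for a second group. They were 1162 divergent promoter regions with a signal under 80, called weaker divergent regions below, and 670 regions of at least 80 with coding starts on 1 strand only, called one-directional regions. Another 755 regions of at least 80 lay near the RNA genes named above, and 671 lay near neither those genes nor coding starts. Read depth was not given, so depth limits could not be set.

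In a compact genome, neighbouring genes on opposite strands often start close to each other, and the DNA between them can hold the initiation sites and factor binding sites of both. Nuclear pore, ribosomal and histone genes, and some but not all chaperone genes, are among those that animals express in most dividing cells. Many C. elegans transcripts have their first bases replaced by a spliced leader, so an annotated start is often the trans-splice site and lies downstream of the true initiation site.

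The DNA under the strongest summits is shown first, because the sequence results turn on it. Of the 167 windows reaching 50 bases either side of a summit, 99 met the rule for printing, which among other limits kept out any that overlap an annotated UTR. The 8 strongest of these are given in ce11 coordinates, read from the RefSeq copy of that assembly. Capitals mark each GCAA and GCAC (or TTGC and GTGC, their reverse complements) that face the same way with 5, 6 or 7 bases between them. This spaced pair of words was looked for after the sequences had been seen.
ecps-1 / atx-2, chrIII:10461280-10461380, plus strand: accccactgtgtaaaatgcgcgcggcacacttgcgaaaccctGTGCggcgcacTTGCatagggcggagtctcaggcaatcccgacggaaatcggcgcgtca
F41F3.3 / F41F3.8, chrV:4647866-4647966, plus strand: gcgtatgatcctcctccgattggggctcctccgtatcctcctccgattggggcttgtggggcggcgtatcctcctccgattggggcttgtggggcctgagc
mlcd-1 / idhg-1, chrIII:4568684-4568784, plus strand: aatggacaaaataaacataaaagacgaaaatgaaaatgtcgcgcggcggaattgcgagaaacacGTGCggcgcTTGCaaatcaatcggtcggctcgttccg
B0495.9 / sre-1, chrII:7708728-7708828, plus strand: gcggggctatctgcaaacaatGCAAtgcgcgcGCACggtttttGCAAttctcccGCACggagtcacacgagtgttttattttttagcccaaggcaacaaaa
rnf-121 / C16C10.4, chrIII:4171131-4171231, plus strand: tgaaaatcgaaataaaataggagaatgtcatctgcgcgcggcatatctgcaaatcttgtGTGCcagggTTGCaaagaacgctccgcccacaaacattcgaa
snx-13 / snr-1, chrIV:17087581-17087681, plus strand: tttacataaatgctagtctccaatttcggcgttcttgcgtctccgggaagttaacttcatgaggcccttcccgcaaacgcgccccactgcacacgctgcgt
nmad-1 / hach-1, chrIII:5555090-5555190, plus strand: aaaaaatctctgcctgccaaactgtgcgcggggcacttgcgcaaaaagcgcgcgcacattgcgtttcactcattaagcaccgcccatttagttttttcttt
rpl-20 / Y17G9B.5, chrIV:4749997-4750097, plus strand: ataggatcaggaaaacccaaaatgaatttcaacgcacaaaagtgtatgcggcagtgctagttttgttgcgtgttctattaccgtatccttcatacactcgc
Spaced pairs stood in 4 of these 8 windows. The window at F41F3.3 and F41F3.8 was of another kind, since a stretch of 31 bases occurred 2 times in it and its summit fell in annotated coding sequence.

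Copies with exactly 7 bases between the words were the most frequent form. They are printed below for the 8 strongest pairs that could be shown, in the direction from GCAA to GCAC with 4 flanking bases each side, so that the spacers can be compared. Capitals mark the words.
ecps-1 / atx-2, chrIII:10461318-10461340, minus strand: ctatGCAAgtgcgccGCACaggg
ears-2 / uncp-18, chrIV:390509-390531, plus strand: tttcGCAAggctgccGCACgctt
B0495.9 / sre-1, chrII:7708745-7708767, plus strand: caatGCAAtgcgcgcGCACggtt
B0495.9 / sre-1, chrII:7708767-7708789, plus strand: ttttGCAAttctcccGCACggag
mig-22 / mtss-1, chrIII:8768079-8768101, minus strand: ttccGCAAacacgccGCACagtt
Y22D7AL.10 / hsp-60, chrIII:1619091-1619113, minus strand: atttGCAAgtttgccGCACgaga
algn-13 / R10D12.13, chrV:13962180-13962202, minus strand: ttatGCAAtgacccgGCACgcat
Y62E10A.20 / Y62E10A.23, chrIV:13386231-13386253, minus strand: atttGCAAcaacgccGCACactt
Y116A8C.9 / arf-6, chrIV:16946918-16946940, minus strand: atttGCAAgtggtgcGCACggga
Over all 167 windows there were 26 copies in 22 windows, and 17 of the 26 ended in GCCGCAC. The base before GCAA was T in 17 copies and C in 8. The centre of a copy lay a median of 16.5 bases from the summit, and at most 39 bases.

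Pooled signal in the 167 regions had a median of 111 and a range from 80.1 to 434, against a median of 45.8 in weaker divergent regions, 91.5 in one-directional regions and 47.1 in all nuclear regions. The best of them ranked 18 in the pooled list. That region lay between ecps-1, which encodes a protein with a domain of the proteasome component Ecm29, and atx-2, the worm ataxin-2. It had a signal of 434 in the pooled list, 173 in replicate 1 and 263 in replicate 2, and its summit lay 59 bp from the atx-2 start and 779 bp from that of ecps-1. Next came the region of ears-2, a mitochondrial glutamyl-tRNA synthetase, and uncp-18, a syntaxin-binding protein. Its signal was 378 in the pooled list, 135 in replicate 1 and 243 in replicate 2. The starts of this pair were only 92 bp apart and the summit lay between them. The third region, at K01G5.10 and tasp-1, the worm taspase, had 376 in the pooled list, 110.0 in replicate 1 and 266 in replicate 2.

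mlcd-1 and idhg-1, a malonyl-CoA decarboxylase and a subunit of isocitrate dehydrogenase, both mitochondrial, shared a region with 339.8 in the pooled list, 117 in replicate 1 and 223 in replicate 2. dnj-29, a J-domain co-chaperone, and ndua-2, a subunit of NADH dehydrogenase, shared one with 313 in the pooled list, 109 in replicate 1 and 200.9 in replicate 2. Further pairs were spe-48 with Y51F10.11 (pooled signal 302), B0495.9 with sre-1 (253), rnf-121 with C16C10.4 (246) and snx-13 with snr-1 (246). In these, sre-1 encodes a serpentine receptor, rnf-121 an E3 ubiquitin ligase, C16C10.4 a putative SAP18 subunit of a histone deacetylase complex, snx-13 a sorting nexin and snr-1 the spliceosomal protein Sm D3. The pooled signal was 239 at nmad-1 and hach-1, 228 at rpl-20 and Y17G9B.5, 222 at the histone genes his-67 and his-68, 209.9 at rps-19 and hsr-9, and 209 at rpl-15 and K11H12.8. It was 206 at F29B9.11 and jmjd-1.2, a cytochrome c oxidase polypeptide and a histone demethylase, and 203 at mig-22 and mtss-1, a chondroitin synthase and the mitochondrial single-stranded DNA-binding protein. Y22D7AL.10 and hsp-60, whose products are the small and the large mitochondrial chaperonin, shared a region with 202 in the pooled list, 69.9 in replicate 1 and 137 in replicate 2. erfa-3 and math-33, a translation factor and a ubiquitin hydrolase, closed the 20 strongest with 196. In each of these 20 regions the signal was higher in replicate 2 than in replicate 1, and 18 of the 20 summits lay between coding genes. The 2 exceptions were both at F41F3.3 and F41F3.8 (355 and 224), which share the same replicate regions.

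**Figure D1:**
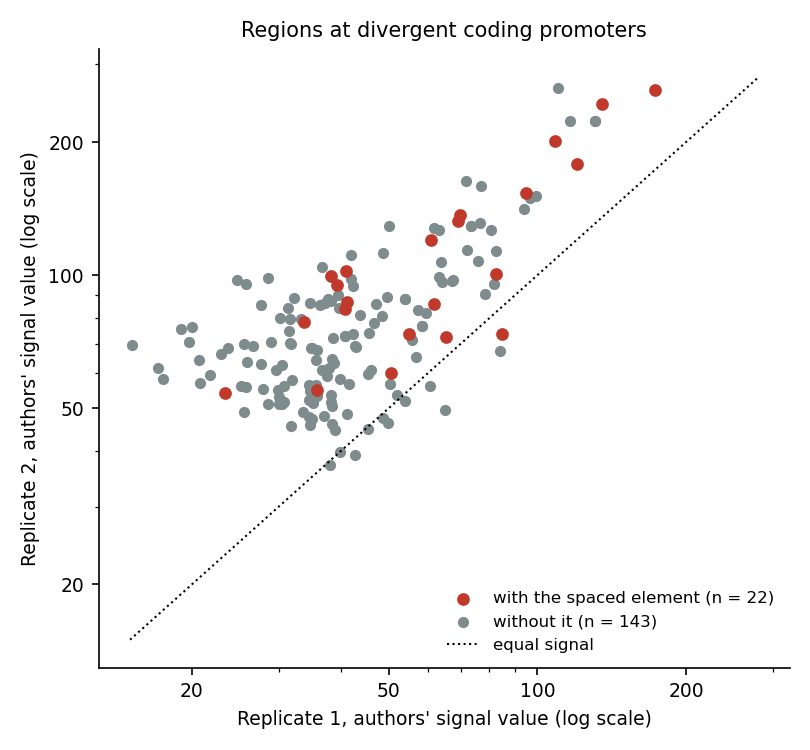
Signal of each region at a divergent coding promoter in replicate 1 (x axis) and replicate 2 (y axis), both the authors' values on log scales, for the 165 regions found in both lists. Most points lie above the dotted line of equal signal, and regions whose window holds GCAA and GCAC 7 bases apart (red, n = 22) are spread over the range and include 7 of the 20 strongest.

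Replicate values were taken from the strongest overlapping region of each replicate list. All 167 regions overlapped one in replicate 2 and 165 did in replicate 1; the exceptions were agl-1 with pfs-2 and C37A2.8 with E02D9.1, at 69.6 and 75.4 in replicate 2. Signal ranged from 15.1 to 173 in replicate 1, with a median of 39.7, and from 37.2 to 266 in replicate 2, with a median of 73.0. The ratio of replicate 2 to replicate 1 had a median of 1.74 in the set, against 1.63 in weaker divergent regions, 1.72 in one-directional regions and 1.72 near RNA genes. Across the 165 regions, which share 2 libraries and are not independent, the rank correlation (Spearman's rho) was 0.553 and that of log2 signal (Pearson's r) 0.68. Both replicates fed the pooled list on which the regions were chosen.

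Ranks were then set side by side. Of the 167 regions, 98 (58.7%, Wilson 95% interval 51.1% to 65.9%, counting error only) overlapped one of the 2263 strongest nuclear regions of both replicates, 21 overlapped such a region of replicate 1 but not 2, 40 of replicate 2 but not 1, and 8 overlapped none. The interval treats the regions as independent, but they share 2 libraries and 10 of them overlap another. The share in both replicates was 38.1% in one-directional regions, 61.9% near RNA genes and 28.8% in regions far from all of these, and these sets also differ in pooled signal. The ratio was lowest at F54F2.6 and zfp-1 (0.761, from 49.5 in replicate 2 and 65.1 in replicate 1), pde-6 and Y95B8A.6 (0.799) and Y116A8C.9 and arf-6 (0.865). It was highest at R05D3.8 and rfp-1 (4.59, from 69.4 in replicate 2 and 15.1 in replicate 1), tiar-1 and lelo-4 (3.98) and drr-2 and set-16 (3.95). zfp-1 encodes a zinc finger protein of chromatin, set-16 a histone methyltransferase and tiar-1 an RNA-binding protein. The optimal set, which the authors thresholded on reproducibility, held 75 of the 167 regions (44.9%). These were the 75 strongest by pooled signal, with a lowest value of 116.2 against a highest of 115.7 among the others, so among these regions the optimal set amounted to a cut on pooled signal.

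The nearest opposite starts were head to head, with the genes leading away from each other, in 162 of the 167 regions (97.0%) and in 91.0% of weaker divergent regions. Their distance had a median of 515.5 bp with quartiles of 325 and 758 bp, against a median of 491 bp in weaker divergent regions. The shortest were 75 bp at madf-8 and gsr-1, a glutathione reductase, and 92 bp at ears-2 and uncp-18, followed by tiar-1 and lelo-4. The longest were 1598 bp at nmat-2 and rab-5, a small GTPase of endosomes, 1563 bp at evl-18 and F34D10.4, and 1541 bp at pld-1 and C04G6.2. In the other 5 regions the nearest starts pointed toward each other, 837 to 1635 bp apart. The summit lay between these starts except at clpp-1 with mdt-22 and ocrl-1 with ceh-5, where it lay outside both. The strongest of the 5 regions (165) was at 2 gene models that share the name hsp-16.48.

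Summits tended to stand between the starts, a position that the choice of regions allowed but did not require. In 134 of the 167 regions (80.2%) the nearest starts were head to head with the summit between them, against 44.1% of weaker divergent regions. Of these 134 summits, 69 (51.5%) were within 100 bp of the midpoint, against 38.7% of the weaker ones. Both starts lay within 300 bp of the summit in 56 regions (33.5%), against 13.9% of weaker regions. The summit was upstream of the nearest start in 136 regions (81.4%), against 46.9% in weaker ones, and over all 167 regions its median position was 115 bp upstream. The nearest start belonged to the minus-strand gene in 90 regions and to the plus-strand gene in 77. By annotation, 127 summits (76.0%) lay between coding genes, 13 (7.78%) in coding sequence, 11 (6.59%) in a UTR and 16 (9.58%) elsewhere in a coding gene. Coding sequence held 33.9% of weaker divergent summits and 16.9% of one-directional ones.

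**Figure D2:**
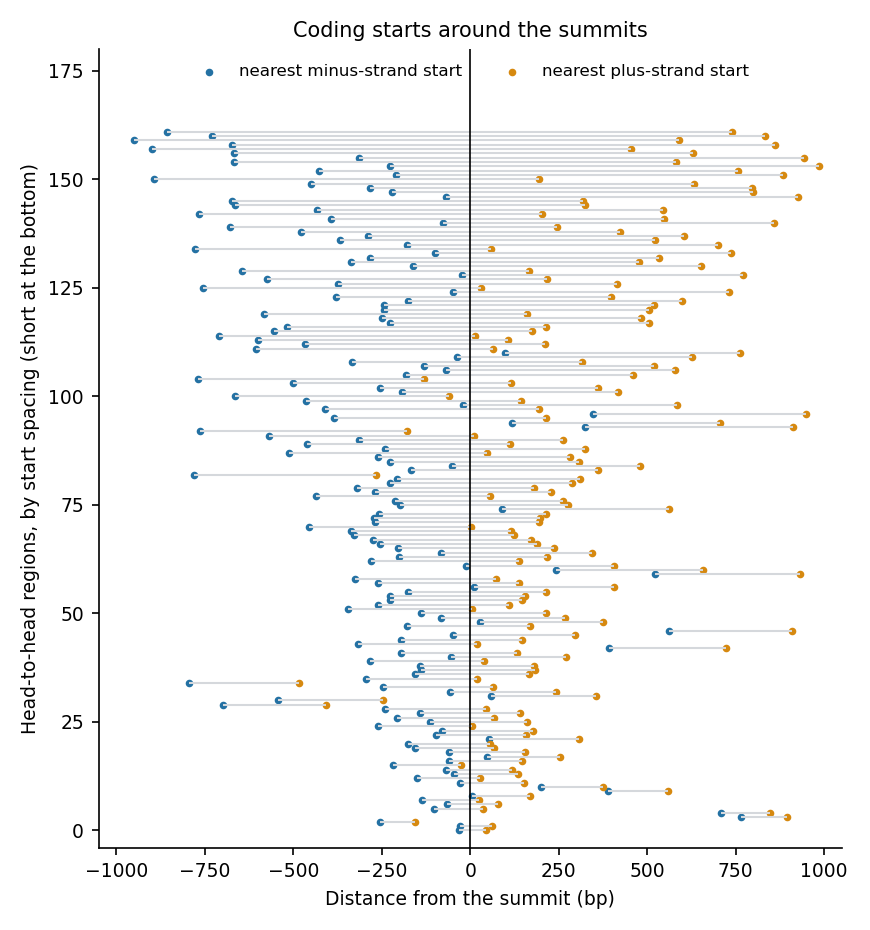
Position of the nearest minus-strand start (blue) and plus-strand start (orange) relative to the summit, in bp, for the 162 head-to-head regions, 1 per line, sorted by the distance between the starts. Most lines cross the summit at 0, and a minority lie wholly to one side of it.

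Some pairs carried more than 1 region, so that the 167 regions named 159 distinct pairs of nearest genes. At ecps-1 and atx-2 a second region had a signal of 89.9, against 434 for the first. At F29B9.11 and jmjd-1.2 the values were 206 and 109, and at Y47D3A.1 and pola-1, the catalytic subunit of DNA polymerase alpha, they were 115 and 89.0. The other such pairs were drr-2 with set-16 (120 and 81.7), let-504 with srrt-1 (109 and 93.8), snrp-40.1 with F08G12.3 (114 and 87.7), F41F3.3 with F41F3.8, and Y92H12BR.2 with Y92H12BR.3 (126 and 90.9). At 5 of these pairs (F41F3.3, F29B9.11, Y47D3A.1, snrp-40.1 and Y92H12BR.2 with their partners) the pooled regions overlapped each other and met the same region of each replicate. The 165 regions found in both replicates therefore stood for 160 distinct pairs of replicate regions, and the 98 among the strongest of both for 93.

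Counted by gene, 333 of 19973 nuclear protein-coding genes (1.67%) had a start within 1000 bp of one of these regions, and 51.7% had one near any region of the pooled list. That first share is the background for the counts of gene lists that follow, which are descriptions with no test. For one-directional regions the same background was 3.30%. Of 42 translation factors 7 (16.7%) had a divergent region, 9.52% had a one-directional region, and 81.0% had a pooled region of any signal. They were the termination factor erfa-3 (pooled signal 196), the initiation factors iff-2 (189), eif-3.E (138), eif-3.I and eif-3.D, and the elongation factors eef-2 (121) and eef-1G. Of 81 cytosolic ribosomal protein genes 7 (8.64%) had a divergent region, 11.1% had a one-directional region and 88.9% a pooled region. The 7 were rpl-20 (228), rps-19 (209.9), rpl-15 (209), rpl-12 (131), rps-23, rps-20 and rpl-30. Of 31 aminoacyl-tRNA synthetase genes 2 (6.45%) had one, ears-2 and iars-1 (98.0), and 0 had a one-directional region. Of 70 mitochondrial ribosomal protein genes 2 (2.86%) had one, mrpl-12 (91.8) and mrps-34 (90.9), and 1.43% had a one-directional region.

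Of 68 splicing and mRNA processing genes 9 (13.2%) had a region, among them snr-1 (246), the SR protein genes rsp-1 and rsp-2, which share one (119), and prp-8 (116), the core spliceosome component. The one-directional share of that list was 8.82% and its pooled share 79.4%. Of 44 nuclear pore and transport genes 5 (11.36%) had one: npp-6 (158), ima-1 (128), ran-3 (125), npp-14 (122) and npp-7. The one-directional share of this list was 4.55% and its pooled share 79.5%. npp-6 and its partner spd-5, a scaffold of the centrosome, share their region, and its signal was 97.1 in replicate 2 and 67.1 in replicate 1. Among 113 chromatin regulators 9 (7.96%) had one, led by jmjd-1.2 (206), lin-35 (181), the worm retinoblastoma protein, lin-54 (131), a DNA-binding member of the DRM complex, and set-16 (120). More of them, 9.73%, had a one-directional region, and 64.6% had a pooled region. The partner of lin-35 was vps-51, a vesicle tethering gene, and the partner of lin-54 was rpl-12.

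Chaperone and histone genes included whole pairs. Of 96 chaperone and folding genes 10 (10.4%) had a region, led by dnj-29 (313), hsp-60 (202) and both models named hsp-16.48 (165). The small heat shock genes hsp-16.2 and hsp-16.41 shared a region with 107 in the pooled list, 59.7 in replicate 2 and 45.5 in replicate 1. F44E5.4 and F44E5.5, both annotated as heat shock protein 70, shared one with 184. The words heat shock stood in the product names of 8 of the 318 nearest genes. They stood in those of 21 of 19962 nuclear coding genes with a product name. Among genes of annotated divergent pairs with starts up to 2000 bp apart they stood in 15 of 5111. These words were chosen after the values had been seen. Of 81 histone genes 6 (7.41%) had a region, in 3 pairs: his-67 with his-68 (222), his-61 with his-62 (112) and his-31 with his-32 (88.3). One-directional regions were at 6.25% of the chaperone and folding genes and at 2.47% of the histone genes. A pooled region was at 70.8% and 46.9% of these lists in that order, against 51.7% of all coding genes. Some of these histone and heat shock genes have near-identical copies, nearby or elsewhere in the genome, and how reads were shared among copies is not given in the sources used here. In all, 6 regions had both nearest genes in the same list, and they were these 3 histone pairs, both small heat shock pairs and rsp-1 with rsp-2.

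In further lists the counts were 3 of 45 for mitochondrial respiration (6.67%), 6 of 130 for vesicle traffic (4.62%), 6 of 140 for cell cycle, centrosome and replication (4.29%), 3 of 85 for proteasome and ubiquitin (3.53%) and 1 of 60 for RNA polymerases and general transcription factors (1.67%). One-directional regions were at 6.67%, 6.15%, 3.57%, 5.88% and 5.00% of the same 5 lists in that order. In these lists the strongest were atp-1, the alpha subunit of ATP synthase (183), snx-13 (246), spd-5 (158), uba-5 (143) and taf-4 (105). Genes were matched to lists by symbol, so the counts miss some. By product name, ndua-2 (313) and F29B9.11 (206) belong with respiration, and rnf-121 (246) and math-33 (196) with ubiquitin. Among genes with tissue-restricted or late roles, 4 of 1247 chemoreceptor genes (0.321%), 1 of 269 nuclear hormone receptor genes (0.372%), 1 of 90 homeobox genes (1.11%) and 3 of 175 cuticle collagen genes (1.71%) had a region. One-directional regions were at 0.802% of the chemoreceptor, 2.60% of the nuclear hormone receptor, 4.44% of the homeobox and 8.57% of the collagen genes. Genes with a divergent region included sre-1 (253), whose start lay 926 bp from the summit, sri-5 (171), nhr-142 (131), ceh-5 (80.6) and col-107 (120). A nearby start does not show which gene of a pair the binding concerns. The word mitochondrial, also chosen after the values had been seen, stood in the product names of 20 of the 318 nearest genes (6.29%). It was in 3.02% for weaker divergent regions, 2.09% for one-directional regions, 2.05% for genes of annotated divergent pairs and 1.49% for all coding genes.

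The regions were spread unevenly over chromosomes. Chromosome I held 47, III held 38, IV held 32, II and V held 23 each and X held 4 (2.40%), whereas X held 4.30% of weaker divergent regions and 19.6% of one-directional regions. Annotated divergent pairs are themselves rare on X. Of 2556 neighbouring coding pairs with starts up to 2000 bp apart, 178 were on X, and 3 of these (1.69%) carried a region of the set with its summit between the starts or within 100 bp of them, against 38 of 429 on I (8.86%), 31 of 385 on III (8.05%) and 17 of 656 on V (2.59%). Pairs near RNA genes stayed in these totals, although regions near RNA genes were left out of the set. X held 31.4% of the regions of at least 80 near RNA genes, and no other chromosome held more than 14.6%. What this takes from the share on X was not tested. Over all chromosomes 137 of 2556 pairs (5.36%) carried a region of the set, and 37.3% carried a pooled region of any signal, 41.6% on X. By spacing, the share was 9.04% for pairs 251 to 500 bp apart, 6.53% at 501 to 1000 bp, 4.30% at 1 to 250 bp and 2.21% at 1001 to 2000 bp. The limit of 1000 bp on both starts bears on the last class.

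**Figure D3:**
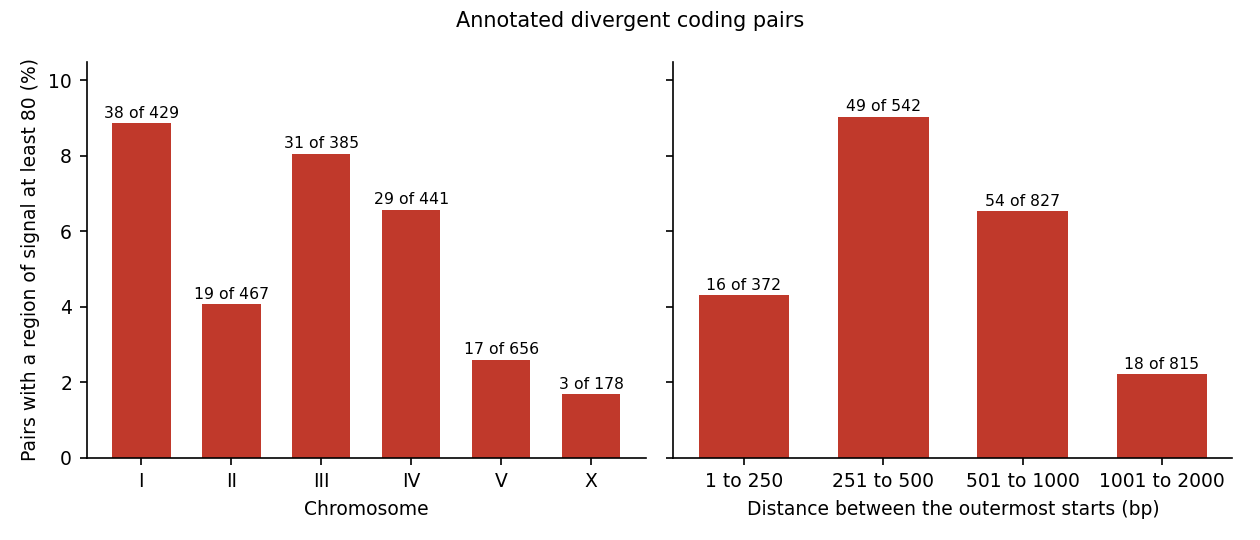
Share of annotated divergent coding pairs, in percent, that carry a region of the set, by chromosome (left) and by the distance between the starts in bp (right), with counts above the bars. The lowest bar among chromosomes is X, with 3 of 178 pairs, and the highest among spacings is 251 to 500 bp, with 49 of 542. Pairs near RNA genes are counted, although regions near RNA genes are not in the set.

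Words of 6 bases were compared next, since the sequence played no part in the choice of regions. The sets differ in the share of summits in coding sequence (7.78%, against 33.9% of weaker divergent and 16.9% of one-directional regions). What this adds to the differences in words was not tested. The windows reaching 50 bases either side of a summit had a median GC content of 47.5%, against 39.6% in weaker divergent regions and 47.5% in one-directional regions. Presence of each of 2080 words, counted on either strand, was tested against weaker divergent regions with two-sided Fisher's exact tests, adjusted by Benjamini-Hochberg over all words. In all, 78 words (3.75%) were more frequent in the set and 9 (0.433%) were less frequent. The most different was GCCGCA, in 16.8% of windows against 2.15% (adjusted exact p = 8.8e-10). It was followed by CGCCGC (17.96% against 2.75%, adjusted exact p = 1.2e-09), CCGCAC (15.6% against 2.32%, adjusted exact p = 2.1e-08), CCGCCC (15.6% against 2.93%) and GCGCAC (18.6% against 4.39%). Words lower in the set were led by AATGAT (1.20% against 8.86%, adjusted exact p = 0.0056) and ATATTA (0.599% against 6.71%). Next, TCTGAA was in 4.19% of windows of the set, GTTCCA in 0 and ACAAAT in 3.59%. Within quintiles of GC content (Cochran-Mantel-Haenszel test, same adjustment) 32 words passed the threshold, all higher in the set, including the 5 higher words just named. With regions and ranks taken from replicate 1 alone, that is without replicate 2, 53 words passed.

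Against one-directional regions, where the median GC content was equal, 10 words (0.481%) were more frequent and 0 (0%) were less frequent at an adjusted p under 0.05; at an unadjusted p under 0.05 there were 53 lower words. TTGCAA was in 19.2% of windows of the set against 5.07% (adjusted exact p = 9.5e-05). TGCAAA followed (24.0% against 9.85%, adjusted exact p = 0.0063), then ATTTGC (21.6% against 8.66%), CTTGCA (16.8% against 5.67%) and GCCGCA (16.8% against 5.97%). All 10 were also among the 78 higher words of the first comparison. The count was 4 without replicate 1 and 12 without replicate 2, and 0 with a threshold of 120, which left 70 regions. The lower words with the smallest p, none past the adjusted threshold, were AGAGGC (0 against 5.52%), AGATGG (0.599% against 6.27%), GGGCAA (0.599% against 5.52%), AAAGAG (5.39% against 13.0%) and AGATCA (0 against 3.73%). All these p-values compare regions from 2 samples of 1 line, so the spread over other batches of embryos is not in them.

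**Figure D4:**
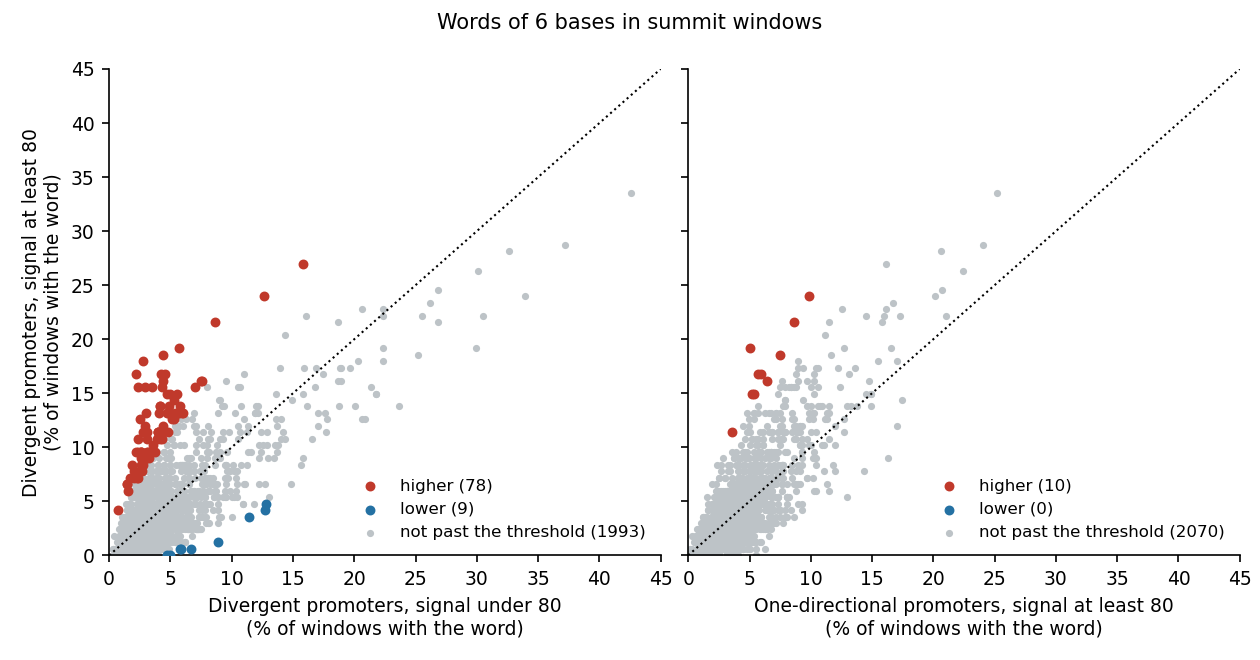
Each point is a word of 6 bases, placed by the percentage of summit windows that hold it in divergent promoter regions with a signal of at least 80 (y axis) and in a comparison set (x axis), which is weaker divergent regions (left) or one-directional regions (right). Red and blue mark words past an adjusted p of 0.05, 78 higher and 9 lower on the left and 10 higher on the right, and the dotted line marks equal shares.

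Named promoter motifs were counted on either strand as a description, beside windows 150 to 250 bp upstream of all coding starts. The GC box GGGCGG, which is the reverse complement of CCGCCC above, stood in 15.6% of windows of the set, 2.93% of weaker divergent windows, 8.36% of one-directional windows and 2.27% of upstream windows. The TATA box TATAAA stood in 4.79%, against 8.26%, 5.22% and 13.1% in the same order of comparison sets. A run of TTTTTT stood in 28.1% of windows of the set, against 32.6%, 20.6% and 45.7% in that same order. The CCAAT box stood in 15.6%, against 18.8%, 19.1% and 18.4%. The CHR element TTTGAA, known from cell cycle promoters, stood in 22.2%, against 22.4% of weaker divergent, 17.3% of one-directional and 29.8% of upstream windows. The B box core GGTTCGA is part of the internal promoter of tRNA genes, and regions near those were left out of the set. It was in 0.599% of windows of the set, 0.861% of weaker divergent, 0.746% of one-directional and 0.456% of upstream windows. Near RNA genes it was in 13.6% of windows. A match is no evidence of a binding site.

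Several of the higher words are pieces of the spaced pair printed above. GCAA and GCAC 7 bases apart stood in 22 of 167 windows (13.2%), against 0.775% of weaker divergent windows, 1.79% of one-directional windows, 1.19% near RNA genes, 0.149% in regions far from all of these, and 0.330% of upstream windows. Windows 600 bp to either side of the same summits held it in 0.299%. With 5 bases between the words the share was 5.99%, with 6 it was 2.99%, and over all spacings from 0 to 20 other than 7 it had a median of 1.20%. Because the pair was chosen after the sequences had been seen, and from these windows, no test is given. The printed windows are the strongest that could be shown, so the values by signal below are not independent of that choice. The pair was in 15 of the 50 strongest regions and in 7 of the other 117. Regions with it had a median pooled signal of 144, against 105 for those without, and a median GC content of 49.0%, against 46.5%. The summit lay between the starts in 21 of the 22, against 80.2% of all 167 regions and 87.1% of those at a threshold of 120.

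**Figure D5:**
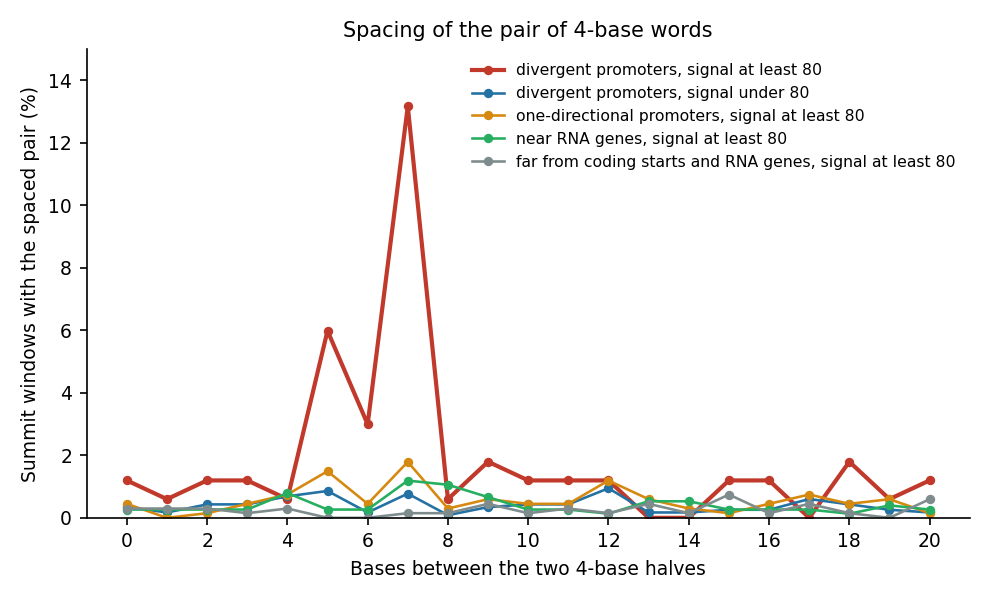
Percentage of summit windows that hold GCAA and GCAC facing the same way, on either strand, by the number of bases between them (0 to 20), for divergent promoter regions with a signal of at least 80 (red) and 4 comparison sets. The red line peaks at 7 bases (13.2%) with a lower point at 5 (5.99%), and no comparison set passes 1.79% at any spacing.

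The genes beside the 22 windows had varied roles. Besides ecps-1 with atx-2, ears-2 with uncp-18 and Y22D7AL.10 with hsp-60, they included haf-6 with smg-2, a nonsense-mediated decay helicase (pooled signal 129), gei-6 with krr-1, a ribosome biogenesis factor (136), and mel-46, an RNA helicase, with lsy-13 (124). Both gei-6 with krr-1 and haf-6 with smg-2 had 2 copies, as did B0495.9 with sre-1 and spe-48 with Y51F10.11. In 5 of the 22 a product name held the word mitochondrial, which was chosen after the values had been seen. Over the whole set the word stood in 20 of 318 nearest genes (6.29%). That share is per gene and not per region, so the 5 cannot be set directly against it. F49C12.9 with rpn-7, a proteasome subunit (122), and clec-53 with uba-5, a ubiquitin-like modifier-activating enzyme (143), were among the rest of the 22. None of the histone, small heat shock or cytosolic ribosomal protein pairs had the pair of words at this spacing. Only 6 histone genes and 7 cytosolic ribosomal protein genes had a region, and the share over all 167 windows was 13.2%. An absence from so few regions therefore says little about these genes.

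The choice of 80 as the threshold left close neighbours on both sides. The last regions inside it were ocrl-1 with ceh-5 (80.6), ciao-1 with clec-104 (80.4) and prp-18 with mccc-1 (80.1). The first outside were ugtp-1 with sma-2 (79.7) and C27C12.1 with C27C12.4, and then fbxa-153 with str-12, both at 79.6. Had regions near RNA genes been kept, 217 regions would have qualified.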

How the data were processed

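Region lists were used as deposited: 1 per replicate, 1 called on both replicates and the optimal set. Per the deposited notes, coordinates are ce11 and no threshold had been applied to the first 3 lists. The signal value of each region was computed by the authors. The aligner, the caller and how the value scales with depth: not given in the sources used here. Starts came from the Ensembl annotation of WBcel235, and sequences and product names from RefSeq. All regions ended within the chromosome lengths. Replicate values are those of the strongest overlapping region, and ranks are among nuclear regions. Words of 6 bases were compared by Fisher's exact test with scipy 1.17.1 in Python 3.11.15. Windows that overlapped a stronger one were to be set aside, but in the main comparisons none did. The procedure was tested on simulated data. Members, the 18 gene lists, the 17 motifs and the rule for named genes (20 strongest regions, up to 4 genes per list, extremes of spacing and replicate ratio, threshold neighbours, 5 words per direction) were chosen with earlier results of these data known. Pairs sharing a region beyond the rule, the spaced pair of words and product words were chosen after values had been seen. Gene lists were matched by symbol.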

Additional observations from a re-analysis of the deposited data

How the results depend on the processing

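With a signal threshold of 60, 374 regions qualified, 66.3% of summits lay between the starts, median GC was 44.6%, 49.7% overlapped top regions of both replicates and 46 words differed from one-directional regions. A threshold of 120 gave 70 regions, 87.1% between the starts, median GC of 48.5% and 0 such words. With starts within 500 bp there were 91 regions, 100% head to head, 90.1% between the starts, a median spacing of 375 bp, GC of 46.5% and 24 words that differed from weaker divergent regions. With starts within 2000 bp there were 275 regions, 90.5% head to head, 67.6% between, 707 bp, 47.6% in both replicates and 162 words. Requiring an optimal peak, among these regions a cut on pooled signal and so not separate from the threshold of 120, left 75 regions, 88.0% between the starts, GC of 48.5% and 0 words against one-directional regions. Excluding RNA genes within 1000 bp gave a median spacing of 499 bp, and using only outermost starts gave 5 words against one-directional regions. Words of 7 bases gave 42 calls against weaker divergent and 5 against one-directional regions, GC quintiles gave 32 against weaker divergent regions, and windows reaching 100 bases either side gave 56 against one-directional regions. Leaving out each replicate gave 167 to 168 regions, 97.0% to 97.0% head to head, 74.3% to 76.2% between the starts, 498.5 to 515 bp, GC of 45.5% to 46.5%, 59.9% to 61.3% in both replicates, and 53 to 58 and 4 to 12 words against weaker divergent and one-directional regions. The spaced pair of words stood in 7.49% of windows at a threshold of 60 and 25.7% at 120. It stood in 24.0% of optimal peaks and 10.7% to 13.2% without 1 replicate. These settings were added after seeing the data, and the shares by threshold are not independent of the choice of the pair. Of 195 checks of the 15 single words called, 139 kept the call and 56 lost it. Of 65 checks of 5 words not called, 61 stayed uncalled and 4 gained a call. Some of these checks could hardly change a call. Keeping overlapping windows altered nothing, since none had been set aside, and interval midpoints almost coincide with summits. In 0 checks did the direction change. The causes of these shifts were not tested. No paired analysis was possible because the study holds 1 group. Limits are the single transgenic line, the 2 replicates, unknown depth and annotated starts that may lie downstream of initiation.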
